A study of Homo sapiens with 10 samples.

Results

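The comparison set the H3K9ac, H3K27ac and H4K16ac island lists of immortalized human astrocytes after 7 days of doxycycline beside each other. All islands of those 3 lists on chromosomes 1 to 22 were taken, and these were 264063 of the 771215 islands that the series' 9 lists hold on these chromosomes. H3K9ac contributed 94807 islands, H3K27ac 83153 and H4K16ac 86103. An island is a stretch of adjoining 200 bp windows in which the authors' caller found more antibody reads than the control library would give.

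The cells are a fetal astrocyte line immortalized with SV40 that expresses IDH1-R132H, a mutant isocitrate dehydrogenase, when doxycycline is added at 1 µg/ml. CUT&RUN, in which an antibody brings a nuclease to its target in permeabilized cells and the released fragments are sequenced, was run with 1 library per mark on cells without doxycycline (noDox, labelled WT IDH1) and after 2 and 7 days of it (2d-Dox and 7d-Dox, labelled IDH1-R132H). A last library, in which the anti-rabbit HRP secondary antibody stood in for a mark antibody on noDox cells, was the control for all lists, so the 7d-Dox marks were set against a control from uninduced cells. Whether the line is 1 clone is not given in the sources used here, no library of doxycycline without the IDH1-R132H construct was analysed here, and the astrocyte label was not checked against marker genes.

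Acetylation of histone tails weakens their hold on DNA and is read by bromodomain proteins. H3K27ac and H3K9ac, placed mainly by p300/CBP and by GCN5/PCAF, mark active promoters and enhancers in short stretches. H4K16ac, placed mainly by MOF (KAT8), is spread more widely over open chromatin and gene bodies and loosens the packing of nucleosomes.

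The libraries differed in size. Relative to the control library, which was set to 1, the size was 4.88 for H3K9ac, 1.49 for H3K27ac and 7.88 for H4K16ac. H4K16ac was thus 5.28 times as large as H3K27ac and 1.61 times as large as H3K9ac. Islands held 9489305 antibody reads for H3K9ac, 4677935 for H3K27ac and 18602277 for H4K16ac. The fewest reads in an island were 17, 11 and 33 in the same order, so weaker stretches relative to library size could be called for H4K16ac than for H3K27ac. The control gave 1.91 reads per kb of H3K9ac islands, 2.11 per kb of H3K27ac islands and 1.91 per kb of H4K16ac islands. With 1 library per mark there was no replicate error and no test, and no p-value is given. Intervals are exact 95% intervals over islands, regions or reads and cover counting only. Reads made by PCR without molecular identifiers are not independent molecules.

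H4K16ac islands were the longest and H3K27ac islands the shortest. The median length of H4K16ac islands was 4800 bp (95% interval 4800 to 5000 bp). The median of H3K9ac islands was 3200 bp and that of H3K27ac islands 2000 bp, and both bounds of their intervals fell on the median. The middle part of the lists, from the lower to the upper quartile, ran between 3200 and 8000 bp in the H4K16ac list, 2200 and 4800 bp in the H3K9ac list and 1200 and 3200 bp in the H3K27ac list, so these ranges overlapped. Short islands set H3K27ac apart: 22.3% of its islands were at most 1 kb long, against 3.78% for H3K9ac and 0.451% for H4K16ac. Long ones set H4K16ac apart. It had 3415 islands of at least 20 kb, which held 17.0% of its covered sequence, whereas H3K9ac had 232 (1.58%) and H3K27ac 153 (1.83%).

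**Figure D1:**
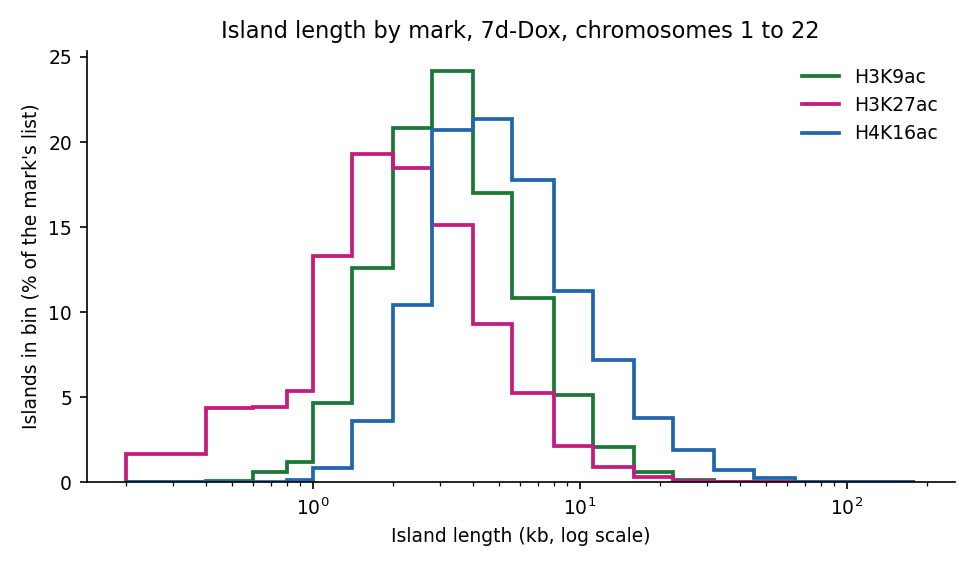
Island length in kb (log scale, x axis) against the share of each mark's islands in each length bin (y axis, percent) for the 3 lists at 7d-Dox. The H3K27ac line lies furthest left (median 2000 bp), H3K9ac between (3200 bp) and H4K16ac furthest right (4800 bp), and all 3 overlap.

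The order of lengths at 7d-Dox was also the order of library sizes. In noDox cells the sizes were 3.98 for H3K27ac, 3.05 for H3K9ac and 2.53 for H4K16ac, and the median lengths were 4400, 3000 and 2000 bp, so there H3K27ac islands were the longest and H4K16ac islands the shortest. At 2d-Dox, with sizes of 3.15 for H3K27ac, 4.17 for H3K9ac and 3.08 for H4K16ac, the medians were 3200, 2400 and 3000 bp. The length of a mark's islands and the size of its library cannot be told apart at 7d-Dox. Taking only the 20000 islands with most reads per kb of each list left the order unchanged, with H4K16ac at 4200 bp, H3K9ac at 2600 bp and H3K27ac at 2000 bp. So did keeping only islands that would still pass at the size of the H3K27ac library (5200, 3400 and 2000 bp). Both choices kept the island bounds called at full depth, so no island could become shorter. Neither can show which order equal depth would give. Among the 5000 densest of each list, a setting added after the data were seen, the order did not hold: the median was 2400 bp for H4K16ac (2400 to 2600 bp), 2600 bp for H3K9ac (2400 to 2600 bp) and 2000 bp for H3K27ac (2000 to 2200 bp).

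Longer islands covered more of the genome. H4K16ac islands covered 583.8 Mb, or 20.3% of the autosomes, H3K9ac islands 371.6 Mb (12.9%) and H3K27ac islands 218.2 Mb (7.57%). Read density within islands ran the other way once library size was divided out. The median island had 11.4 size-scaled reads per kb for H3K27ac, 4.82 for H3K9ac and 3.86 for H4K16ac. Without that scaling the medians were 17.0, 23.5 and 30.5 reads per kb, the opposite order, and the 5th percentile of the scaled density, which lies near the weakest callable islands, was 5.67, 3.41 and 2.99. The order of the scaled densities was the reverse of the order of library sizes, and density and library size cannot be told apart from the 7d-Dox libraries alone. H3K27ac also had the highest median at the other times, with 8.13 against 5.62 for H3K9ac and 6.10 for H4K16ac in noDox cells, where its library was the largest, and 8.90 against 5.39 and 5.22 at 2d-Dox.

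The 3 marks shared much of their sequence. Of 757.9 Mb covered by any mark, 81.2 Mb (10.7%) lay in islands of all 3. H4K16ac alone made up the largest piece, 298.4 Mb (39.4%), followed by H3K9ac with H4K16ac at 173.9 Mb (22.9%). H3K9ac alone covered 67.3 Mb (8.88%), H3K27ac alone 57.6 Mb (7.61%), H3K9ac with H3K27ac 49.2 Mb (6.49%) and H3K27ac with H4K16ac 30.2 Mb (3.99%). When islands that touched were merged across marks, 117166 regions resulted, and 28663 of them held all 3 marks. Those were the longest, with a median of 9800 bp, against 4000 bp in regions of H4K16ac alone, 2400 bp where H3K9ac was alone and 1200 bp where H3K27ac was. Such a region joins islands of all 3 lists, so it tends to be longer by construction. H3K27ac with H4K16ac and without H3K9ac was the rarest combination, with 4578 regions.

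Read by islands, most H3K9ac islands had H4K16ac on them. Among H3K9ac islands, 74.9% (74.6 to 75.2%) overlapped an H4K16ac island by at least 1 bp and 51.6% (51.3 to 51.9%) overlapped H3K27ac. Among H3K27ac islands, 61.7% (61.3 to 62.0%) overlapped H3K9ac and 57.3% (57.0 to 57.6%) overlapped H4K16ac. Among H4K16ac islands, 64.5% (64.2 to 64.9%) overlapped H3K9ac and 44.8% (44.5 to 45.1%) overlapped H3K27ac. A minority of the islands of the shorter marks lay wholly inside a longer one: 41.4% of H3K9ac islands and 33.6% of H3K27ac islands lay wholly within H4K16ac islands, and 26.2% of H3K27ac islands lay wholly within H3K9ac islands. In the other direction, 8.91% of H4K16ac islands lay wholly within H3K9ac.

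These shares depend on how much of the genome each partner covers. Measured by sequence, H3K9ac and H3K27ac islands overlapped 4.63 times as much as the autosome share of the partner, H3K9ac and H4K16ac 3.39 times and H3K27ac and H4K16ac 2.52 times. On this scale H3K9ac with H3K27ac came first, whereas among the island shares H3K9ac with H4K16ac did. For islands that had no partner, the gap to the nearest one was measured. It was beyond 50 kb for 3.38% (H4K16ac to H3K9ac) to 18.95% (H3K27ac to H4K16ac) of them. Gaps from random positions were not measured, so closeness was not tested. The median gap was 6.80 kb from H3K9ac to H3K27ac, 5.20 kb from H3K9ac to H4K16ac and 7.60 kb from H3K27ac to H4K16ac.

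The mark that H3K9ac met most often depended on how many of the densest islands were taken. With the 83153 densest islands of each list, the number in the shortest list, 74.3% of H3K9ac islands met H4K16ac and 55.5% met H3K27ac, the same order as with all islands. The order turned when the densest islands of each list were taken up to the same covered length. Then 65.1% of 56700 H3K9ac islands met H3K27ac and 37.2% met H4K16ac. With the 20000 densest of each list, 46.4% met H3K27ac (45.7 to 47.1%) and 26.5% met H4K16ac (25.9 to 27.1%). With the 5000 densest the shares were 23.5% and 10.7%. The H3K27ac islands showed no such switch. They met H3K9ac more often than H4K16ac with all islands (61.7% against 57.3%) and with the 20000 densest (44.9% against 20.8%). Of the 20000 densest H4K16ac islands, 25.7% met H3K9ac and 20.4% met H3K27ac. The overlap of H3K9ac and H3K27ac sequence then stood at 21.5 times the partner's autosome share, against 4.35 times for H3K9ac with H4K16ac and 3.16 times for H3K27ac with H4K16ac.

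**Figure D2:**
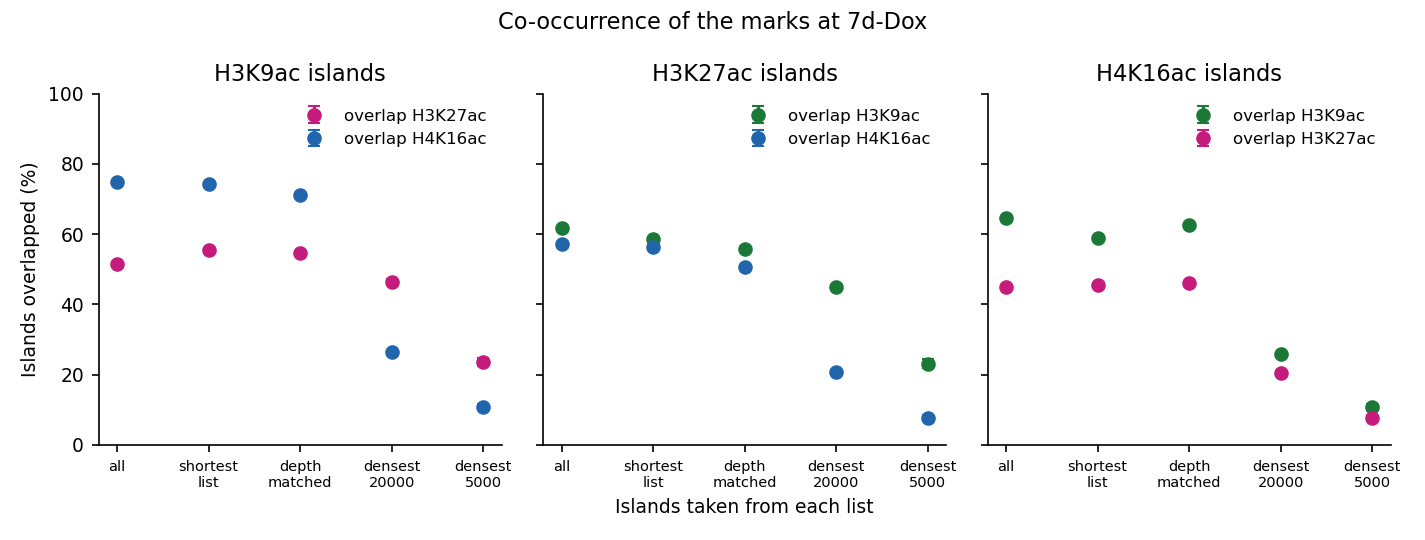
Share of islands of each mark (panels) that overlap an island of another mark (y axis, percent) when all islands, the number in the shortest list, depth-matched islands or the densest 20000 or 5000 of each list are used (x axis); points are shares and bars exact 95% intervals, mostly smaller than the points. For H3K9ac the H4K16ac point is above H3K27ac with all islands (74.9% against 51.6%) and below it with the densest 20000 (26.5% against 46.4%).

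The same order was measured in the libraries of the other times. Among the 20000 densest islands of each noDox list, 63.7% of H3K9ac islands met H3K27ac and 17.0% met H4K16ac, and at 2d-Dox the shares were 57.9% and 16.8%. With all islands, H4K16ac was again the more frequent partner of H3K9ac, by 59.4% against 57.6% in noDox cells and by 56.8% against 49.9% at 2d-Dox, a smaller gap than at 7d-Dox. In noDox cells that order rests on counting an overlap of 1 bp: where at least 50% of the H3K9ac island had to be covered, the noDox shares were 36.7% for H4K16ac and 52.1% for H3K27ac, and the 2d-Dox shares 44.4% and 43.1%. The sequence overlap of H3K9ac and H3K27ac was 5.18 times the partner's autosome share at both of these times, and that of H3K9ac and H4K16ac 3.81 times in noDox cells and 3.87 times at 2d-Dox. The lists of all times share the control library.

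Read density sorted the H3K9ac islands by their partner. In the decile of H3K9ac islands with fewest reads per kb, 22.8% overlapped any H3K27ac island, and this share rose at every step to 89.9% in the densest decile. The share overlapping any H4K16ac island was 71.9% in the sparsest decile, 79.3% in the fifth and 66.2% in the densest. The densest H3K9ac islands were the shorter ones, with a median of 2600 bp against 3600 bp in the sparsest decile, although longer islands have more room for an overlap. H3K27ac islands went from 53.3% to 73.6% overlap with H3K9ac and stayed between 55.0% and 62.7% for H4K16ac. H4K16ac islands went from 38.8% to 80.2% with H3K9ac and from 29.8% to 59.0% with H3K27ac. A dense H3K9ac island thus mostly had H3K27ac, whereas a dense H3K27ac island was about as likely as a sparse one to have H4K16ac.

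**Figure D3:**
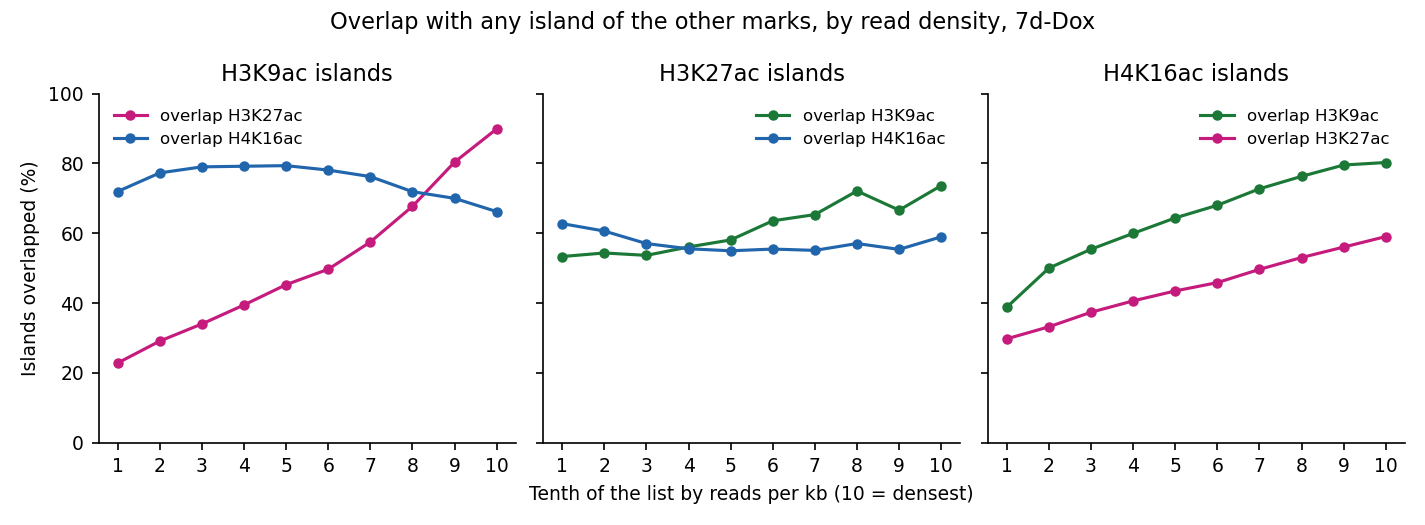
Share of islands overlapping any island of another mark (y axis, percent) by decile of the list ranked on reads per kb (x axis, 10 is densest), 1 panel per mark. The H3K27ac line in the H3K9ac panel climbs from 22.8% to 89.9%, while the H4K16ac line there ends lower (66.2%) than it starts (71.9%).

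Profiles around island midpoints showed how narrow the sharing was. At the midpoints of the 20000 densest H3K9ac islands, 76.3% of positions lay in an H3K27ac island, and 21.1% did 20 kb downstream. H4K16ac covered 60.0% at those midpoints and 44.2% at 20 kb, so it rose over a high and level surround. At the midpoints of the 20000 densest H3K27ac islands, H3K9ac covered 67.1% (28.0% at 20 kb) and H4K16ac 49.8% (39.7% at 20 kb). At those of the 20000 densest H4K16ac islands, H3K9ac covered 62.6% (37.8% at 20 kb) and H3K27ac 31.7% (19.04% at 20 kb). All of these levels at 20 kb were above the partner's share of the autosomes, which was 12.9% for H3K9ac, 7.57% for H3K27ac and 20.3% for H4K16ac.

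**Figure D4:**
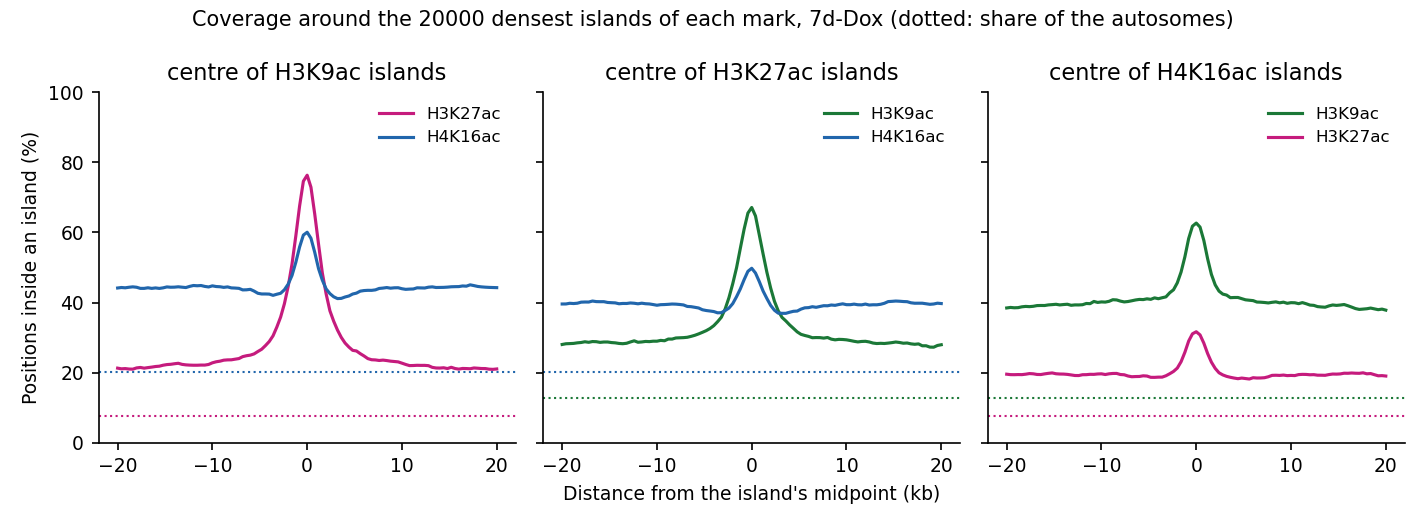
Share of positions inside an island (y axis, percent) by distance from the midpoint (x axis, kb) of the 20000 densest islands of each mark (panels), with dotted lines at the share of the autosomes each mark covers. H3K27ac peaks at 76.3% over H3K9ac midpoints, and H4K16ac rises less, from 44.2% at 20 kb to 60.0%.

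Islands that carried all 3 marks were longer and had more often been called at the earlier times. Longer islands have more room for an overlap of either kind, and the part of length was not tested. H3K9ac islands with both other marks (35478) had a median length of 4200 bp, and 86.4% of them overlapped an H3K9ac island of the noDox list. Those with neither (10356) had a median of 2400 bp, and 29.4% did. H3K27ac islands with both other marks (37021) had a median of 2600 bp and 80.7% had an H3K27ac island in noDox cells, against 1200 bp and 34.4% for the 21253 with neither. H4K16ac islands with both (33250) had a median of 6200 bp and 78.7% had been called in noDox cells, against 4000 bp and 41.0% for the 25206 with neither. For H3K27ac, the presence of H3K9ac went with earlier calling more than that of H4K16ac did: 87.2% of the islands with H3K9ac and no H4K16ac had a noDox island, and 37.9% of those with H4K16ac and no H3K9ac did. The first group was also longer, with a median of 2400 bp and 41 reads against 1400 bp and 19 reads, and the part of length in this difference was not tested.

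The 5 regions where the least of the 3 size-scaled densities was highest were short. They came from 8840 regions with at least 100 reads of each mark. The first, at 2q37.1 (hg19 chr2:232525601-232532400), had 271 H3K9ac, 121 H3K27ac and 441 H4K16ac reads. The second, at 17p13.1 (chr17:7529001-7531800), had 186, 121 and 154 reads in that order. The others lay at 1p13.2 (chr1:113614401-113618800), 17q25.1 (chr17:73284201-73286600) and 12q13.12 (chr12:49502401-49505400). At 2q37.1 the scaled densities of H3K9ac and H4K16ac were nearly equal, at 8.41 and 8.23 reads per kb, and that of H3K27ac was 18.4. All 5 regions had H3K9ac and H3K27ac islands in noDox cells and at 2d-Dox, and for H4K16ac the exception was 17p13.1 at 2d-Dox, where no island was called.

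The longest islands showed where H4K16ac and H3K27ac parted. The longest H4K16ac island, 131000 bp at 6q15 (chr6:90361401-90492400), held 5654 reads. H3K9ac islands covered 71.1% of it and H3K27ac islands 4.73%. The third longest, 118800 bp at 15q22.31 (chr15:63914001-64032800), was covered to 88.6% by H3K9ac and to 2.53% by H3K27ac. Between them in length came 17p11.2 (chr17:16972601-17096400, 123800 bp), where H3K9ac covered 76.3% and H3K27ac 65.9%. The 17p11.2 island had 431 control reads, against 264 at 6q15 and 260 at 15q22.31. Over all 3415 H4K16ac islands of at least 20 kb, 99.1% overlapped H3K9ac, with a median of 58.3% of the island covered. H3K27ac overlapped 81.4% of them but covered a median of 12.3%, and 636 had none. H3K9ac covered 42.8% of positions 10 kb outside these islands, dipped to 28.1% at 0.4 kb outside, and covered 49.3% at 0.8 kb and 58.7% at 10 kb inside. H3K27ac covered 18.4%, 14.6%, 19.9% and 15.9% at the same positions, so far from the edge it was no higher inside than outside.

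The longest H3K9ac and H3K27ac islands carried all marks. The longest H3K9ac island, 54600 bp at 8p21.3 (chr8:22409801-22464400), was covered to 76.6% by H3K27ac and to 63.0% by H4K16ac. That at 2p22.3 (chr2:36572201-36624600, 52400 bp) was covered to 87.0% and 90.8%. That at 17p13.1 (chr17:7769601-7820600, 51000 bp) was covered to 64.7% and 95.7%. The longest H3K27ac islands lay at 10q22.3 (chr10:80825401-80879200, 53800 bp), 14q24.1 (chr14:69402401-69450000, 47600 bp) and 17q21.33 (chr17:48254001-48301200, 47200 bp). H3K9ac covered 65.4%, 87.0% and 65.7% of them, and H4K16ac 46.8%, 68.9% and 53.8%. All 153 H3K27ac islands of at least 20 kb overlapped H3K9ac, with a median of 81.2% covered, and 17 of them had no H4K16ac.

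Islands of a single mark were fewest for H3K9ac. It had 10356 islands that overlapped neither other mark, 10.9% of its list (10.7 to 11.1%). H3K27ac had 21253 (25.6%, 25.3 to 25.9%) and H4K16ac 25206 (29.3%, 29.0 to 29.6%). Asking that no other mark lay within 5 kb left 3461, 10989 and 11164. Single-mark islands held 5.71% of the list's reads for H3K9ac, 10.3% for H3K27ac and 17.2% for H4K16ac, in each case less than their share of the list's islands. Among the 20000 densest islands of each list, those without any island of the other marks numbered 1082 for H3K9ac (5.41%), 4335 for H3K27ac (21.7%) and 3294 for H4K16ac (16.5%). The H3K27ac ones were tiny, with a median of 400 bp and 14 reads, and gave 2.81 control reads per kb against 2.31 for all of the 20000.

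Part of the single-mark islands had another mark at an earlier time. Of the H3K9ac ones, 42.9% overlapped an H3K27ac or H4K16ac island of the noDox lists, against 80.1% of all H3K9ac islands. The shares were 24.8% against 68.5% for H3K27ac and 27.8% against 64.3% for H4K16ac. Those shares also depend on the size of the earlier libraries.

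Strong loci of a single mark, with at least 100 reads over at least 1 kb and no other mark within 5 kb, numbered 81 for H3K9ac, 43 for H3K27ac and 6500 for H4K16ac. A fixed number of reads is easier to reach in a larger library, so these 3 counts do not compare the marks. The densest H3K9ac locus, at 2q37.1 (chr2:231821601-231823600), had 104 H3K9ac reads and 8 control reads, with the nearest H3K27ac island 14600 bp and the nearest H4K16ac island 70800 bp away. It had H3K27ac islands of 67 reads in noDox cells and 40 reads at 2d-Dox, so its calls were H3K9ac-only at 7d-Dox and not before. The H3K27ac library was larger at both earlier times (3.98 and 3.15 against 1.49). The part of library size in the missing call was not tested. The second, at 4q22.1 (chr4:89078401-89081200), had 107 H3K9ac reads and 14 control reads, and H3K27ac islands of 114 and 61 reads at the earlier times. The others were at 4q13.3 (chr4:71959401-71962400, 105 reads and 10 control reads), 18p11.31 (chr18:3496401-3501000, 151 and 19) and 2p15 (chr2:62867001-62870600, 117 and 15). Each of these H3K9ac loci lay above the 1.91 control reads per kb of the whole list. The part of the control signal in these calls was not tested. Neither 4q13.3 nor 18p11.31 had an island of another mark at any time.

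The 5 densest H3K27ac loci had H3K27ac islands at all 3 times, and some were high in the control. The densest, at 14q22.1 (chr14:53257401-53259400), had 127 H3K27ac reads at 7d-Dox and islands of 470 reads in noDox cells and 346 reads at 2d-Dox, with no H3K9ac or H4K16ac island at any time. That at 9q33.3 (chr9:129567001-129569400) had 124 reads at 7d-Dox, and 288 and 170 before, again with no other mark at any time. Raw reads do not compare the times, since the H3K27ac library sizes were 3.98 (noDox), 3.15 (2d-Dox) and 1.49 (7d-Dox). The earlier islands at 14q22.1 were also longer, at 8200 bp (noDox) and 8600 bp (2d-Dox). These loci had 25 control reads in 2000 bp at 14q22.1 and 29 control reads in 2400 bp at 9q33.3, above the 2.11 control reads per kb of the whole list, and the part of the control signal in these calls was not tested. The rest lay at 10q26.3 (chr10:134330401-134333000, 118 reads and 8 control reads), 7q22.1 (chr7:102631001-102634400, 154 and 14) and 7q33 (chr7:135428601-135431600, 135 and 23). Each of these 3 had an H4K16ac island at 2d-Dox of 40 to 66 reads. In noDox cells H4K16ac islands had 32 reads at 10q26.3 and 44 at 7q33. H3K9ac islands had 80 reads at 10q26.3 at 2d-Dox, and at 7q22.1 43 reads in noDox cells and 97 at 2d-Dox.

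The densest H4K16ac locus, at 18q12.2 (chr18:34240601-34244400), had 196 H4K16ac reads and 20 control reads. It had H4K16ac islands of 85 reads in noDox cells and 127 at 2d-Dox and no other mark at any time. Raw reads do not compare the times, since the H4K16ac library sizes were 2.53 (noDox), 3.08 (2d-Dox) and 7.88 (7d-Dox). At 1q44 (chr1:244639401-244642000) there were 132 H4K16ac reads and 4 control reads, with no H4K16ac island at the earlier times and an H3K9ac island of 25 reads at 2d-Dox. At 8q22.1 (chr8:97301401-97303800) there were 121 reads at 7d-Dox, 75 at 2d-Dox and 10 control reads. Control reads per kb at 18q12.2 and 8q22.1 were above the 1.91 of the whole list, and the part of the control signal was not tested. The other 1q44 locus (chr1:247028201-247030800) had 129 reads and 2 control reads, and an H3K9ac island of 70 reads at 2d-Dox. At 4q31.21 (chr4:142964201-142966400) the 108 H4K16ac reads stood where H3K9ac islands had 59 and 66 reads and H3K27ac islands 75 and 78 reads at the earlier times, and neither H3 mark was called at 7d-Dox. An island that is missing from a list lies under the caller's limit for that library, which is not the same as no acetylation.

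Where 2 marks shared a region, their reads in called islands divided by library size were compared. Reads outside islands were not counted, so a ratio also depends on how much of the region was called for each mark. Over 39752 regions with both, the log2 ratio of H3K9ac over H3K27ac had a median of -0.77 (quartiles -1.45 and 0.03). For H3K9ac over H4K16ac it was -0.27 (-0.85 and 0.34, 46117 regions) and for H3K27ac over H4K16ac 0.34 (-0.76 and 1.55, 33241 regions). The medians of the last 2 pairs changed sign with other scalings, so which mark had more reads in the median region depended on the scaling. The spread was widest for H3K27ac over H4K16ac. As a description across regions, which are not replicates and share called length and local sequence, the reads per kb of the 2 marks had a Spearman rho of 0.506 for H3K9ac with H3K27ac, 0.189 for H3K9ac with H4K16ac and 0.0516 for H3K27ac with H4K16ac.

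Regions that differed at least 4-fold were most frequent for H3K27ac against H4K16ac. H3K27ac was higher in 17.6% of the shared regions (5845) and lower in 7.39% (2456). For H3K9ac against H3K27ac the shares were 2.17% higher (863) and 9.35% lower (3716), and for H3K9ac against H4K16ac 1.77% higher (815) and 3.08% lower (1421). The balance of higher and lower depends on the scaling by library size. Scaled by reads in islands, the median moved from 0.34 to -0.073 for H3K27ac over H4K16ac. For H3K9ac over H3K27ac it moved from -0.77 to -0.076, and the counts were not remade. The 4-fold regions were chosen on the 7d-Dox libraries and were then read in the other libraries. Of the regions 4-fold higher in H3K27ac than H4K16ac, 4691 had islands of both marks in noDox cells. Their median log2 ratio there was 2.95, and 99.7% lay above 0. Over the 21407 shared regions with both marks called there, the median was 1.55 and 81.4% lay above 0. At 2d-Dox the median was 2.94 over 3966 regions and 99.8% lay above 0, against 1.23 and 74.2%. Of the regions 4-fold lower, 78.2% were below 0 in noDox cells and 89.3% at 2d-Dox, against 18.6% and 25.8% of all shared regions.

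Regions where H3K9ac differed from another mark at 7d-Dox differed the same way in the median at the earlier times. Medians and shares below 0 count only regions with islands of both marks at the earlier time, also for all shared regions. Regions 4-fold higher in H3K9ac than H4K16ac had a median of 1.94 in noDox cells and 1.87 at 2d-Dox, against 0.29 and -0.05 over all shared regions. Regions 4-fold lower had medians of -0.54 and -0.82 and were below 0 in 68.6% and 79.4% of cases, against 39.5% and 51.6% of all shared regions. Regions 4-fold lower in H3K9ac than H3K27ac had medians of -2.04 and -1.997, against -1.16 and -1.08 over all. Regions 4-fold higher had medians of 0.998 and 1.503, and 46.0% of them in noDox cells and 41.3% at 2d-Dox had H3K9ac islands with no H3K27ac island, against 8.79% and 10.5% of all shared regions.

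At the highest ratios over H4K16ac lay regions that carried both H3 marks and little called H4K16ac. At 7q32.3 (chr7:130560201-130621800), H3K27ac islands held 2079 reads over 59400 bp, H3K9ac islands 1515 reads over 50000 bp and H4K16ac islands 105 reads over 4200 bp. The log2 ratio of H3K27ac over H4K16ac there was 6.71 (6.43 to 7.01) and that of H3K9ac over H4K16ac 4.54 (4.25 to 4.84). The same region had 8805 H3K27ac, 950 H3K9ac and 35 H4K16ac reads in noDox cells and 6954, 959 and 24 at 2d-Dox. H4K16ac thus had the fewest reads in islands there at all 3 times. At 3q12.1 (chr3:98602201-98627200), 856 H3K27ac and 891 H3K9ac reads stood against 64 H4K16ac reads, and the log2 ratios over H4K16ac were 6.14 and 4.49. At 8q24.3 (chr8:145007401-145033800), 1897 H3K27ac reads stood against 105 H4K16ac reads (6.58), and at 2q31.1 (chr2:172956401-172972000) 751 H3K9ac reads stood against 64 (4.24). Per kb of island, H3K27ac over H4K16ac was 2.89 at 7q32.3, 2.52 at 3q12.1 and 3.97 at 8q24.3. H3K9ac over H4K16ac was 0.97, 0.89 and 0.70 per kb at 7q32.3, 3q12.1 and 2q31.1. A positive sign per kb was usual and does not set these loci apart. Over all shared regions the lower quartile per kb was 1.07 for H3K27ac over H4K16ac and 0.02 for H3K9ac over H4K16ac.

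The lowest ratios of H3K27ac over H4K16ac were at long stretches of H4K16ac and H3K9ac with few H3K27ac reads in called islands. At 15q15.1 (chr15:41990601-42055200), H4K16ac islands held 2447 reads over 64600 bp and H3K9ac islands 869 reads over 39800 bp, while a single H3K27ac window of 200 bp held 11 reads. The log2 ratio of H3K27ac over H4K16ac was -5.40 (-6.40 to -4.55). No island of the H3K27ac list had fewer than 11 reads, and H3K27ac reads in the rest of the region were not seen. In noDox cells it had 453 H4K16ac, 438 H3K9ac and 135 H3K27ac reads. At 11q22.3 (chr11:103013001-103095000), 3164 H4K16ac and 1186 H3K9ac reads stood against 15 H3K27ac reads, and no H3K27ac island was called there in noDox cells. At 2q31.1 (chr2:174076801-174134600), 2275 H4K16ac reads stood against 14 H3K27ac reads, and H3K27ac was not called there at the earlier times. At 4q22.3 (chr4:95145601-95214200), 1043 H3K9ac reads stood against 16 H3K27ac reads. These differences lay in called length: per kb of island, the few H3K27ac windows were denser than the other mark at all 4 of these loci, so the ratio took the other sign. The median shared region had that sign per kb too, at 1.59 for H3K27ac over H4K16ac and -1.21 for H3K9ac over H3K27ac.

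H3K9ac was lowest against H4K16ac at 3 H4K16ac stretches of 26000 to 33800 bp. At 3q25.1 (chr3:149557401-149583400) 822 H4K16ac reads over 26000 bp stood against 30 H3K9ac reads over 800 bp (log2 ratio -4.09), at 4q28.1 (chr4:126391601-126425400) 1059 against 40 (-4.04), and at 6q14.1 (chr6:83744801-83771400) 821 against 33 (-3.95). Per kb of island all 3 were above 0, as was the lower quartile over all shared regions (0.02). They were less steady over time than the regions above: 3q25.1 had a log2 ratio of 0.72 in noDox cells and -2.46 at 2d-Dox, and 6q14.1 -0.19 and 0.11. H3K27ac exceeded H3K9ac most at 3q21.1 (chr3:123547601-123566600), by 209 reads against 28 (-4.61), at 3q29 (chr3:197210801-197220000), by 320 against 43 (-4.61), and at 1p36.21 (chr1:15067201-15078400), by 193 against 36 (-4.13). At 3q21.1 and 3q29 the ratio was -1.69 and -2.66 in noDox cells and -2.16 and -2.83 at 2d-Dox.

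The marks also differed along chromosomes. All were densest on chromosome 17, where islands covered 21.97% of the length for H3K9ac, 15.5% for H3K27ac and 28.9% for H4K16ac. H3K9ac (5.31%) and H3K27ac (2.87%) were sparsest on chromosome 13 and H4K16ac on chromosome 16 (9.27%). Control reads per kb of H3K9ac, H3K27ac and H4K16ac islands were also highest on chromosome 17, at 2.21, 2.33 and 2.19. They were lowest on chromosome 16, at 1.61, 1.58 and 1.63, and were 1.91, 2.11 and 1.91 in the whole lists. The part of the control signal in the coverage of a chromosome was not tested. Chromosome 19, known for its many genes and its clusters of zinc finger genes, was the one chromosome where H3K27ac covered most, at 12.2% against 8.40% for H3K9ac and 10.7% for H4K16ac. H3K27ac also covered most of it in noDox cells (13.4% against 7.16% and 6.02%) and at 2d-Dox (10.7% against 7.92% and 3.86%). It covered most on 10 of the chromosomes in noDox cells, where its library was the largest, and on 2 at 2d-Dox, so this order was not limited to chromosome 19 at those times. Control reads on chromosome 19 were 1.75, 1.82 and 1.64 per kb of island for H3K9ac, H3K27ac and H4K16ac.

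**Figure D5:**
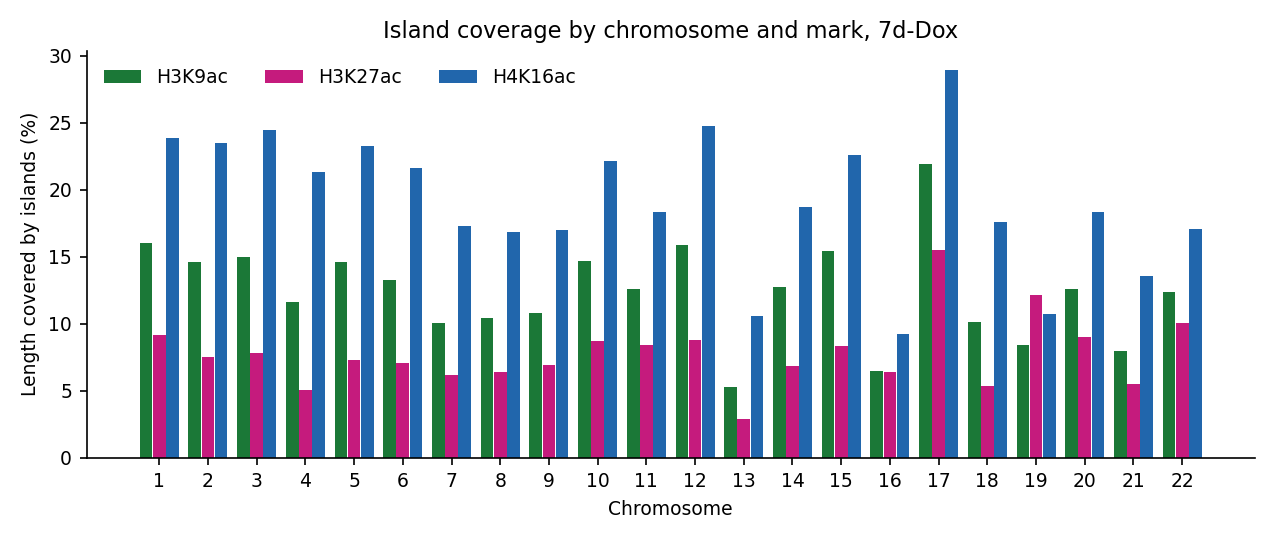
Share of each chromosome's length covered by islands (y axis, percent) for chromosomes 1 to 22 (x axis) and the 3 marks at 7d-Dox, as bars. H4K16ac is the tallest bar on every chromosome except 19, where H3K27ac (12.2%) exceeds H4K16ac (10.7%) and H3K9ac (8.40%).

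Giemsa bands, which staining shows as paler and darker segments of a chromosome, were compared by island coverage. Light bands are known to be rich in genes and in G and C, and dark bands poor in both. Unstained bands were covered to 25.01% by H4K16ac, 16.8% by H3K9ac and 10.4% by H3K27ac, and the darkest class to 15.5%, 7.72% and 3.47%. Among the 20000 densest islands of each list the marks differed little by stain: unstained bands held 58.1% of H4K16ac, 58.9% of H3K9ac and 57.3% of H3K27ac islands, and the darkest class 7.73%, 6.65% and 8.25%. The bands that follow were compared with all islands. By share of a list's covered sequence, H3K27ac stood highest over H4K16ac in 19p13.3 (log2 ratio 2.10), 19p13.2 (2.06) and 1p36.33 (1.87), and lowest in 5q21.3 (-1.83), 2q32.1 (-1.59) and 4q28.1 (-1.59). Over 418 bands the SD was 0.61. In 5q21.3, H4K16ac islands covered 44.3% of the band and H3K27ac islands 4.65%.

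H3K9ac stood between the other marks. Against H3K27ac it was lowest in 19p13.3 (-1.69), 19q13.33 (-1.47) and 1p36.33 (-1.40) and highest in 2q32.1 (1.22), 5q21.3 (1.14) and 5q14.1 (1.06), with an SD of 0.47 over 417 bands. Against H4K16ac the spread was the smallest, with an SD of 0.28 over 571 bands. It was lowest there in 4q13.1 (-1.18), 13q21.31 (-1.17) and 13q21.32 (-1.05) and highest in 6p21.32 (0.82), which holds MHC class II genes, in 17q23.1 (0.77) and in 19p13.2 (0.73). Each of these named bands had the same sign in noDox cells and at 2d-Dox.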

How the data were processed

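SICER, Bowtie2 2.3.5.1, Picard, cutadapt, deepTools and FastQC are named in the submitters' processing notes with the build hg19. Caller settings and duplicate handling are not stated in the labels or headers. The deposited columns hold whole-number counts of antibody and control reads per island, the authors' log2 fold change, p-value and FDR against the control, and a score that was not analysed. Relative library size is the log2 ratio of the counts less the deposited log2 fold, constant within a list. Coordinates are 1-based. Islands on chromosomes 1 to 22 were compared with Python 3.11.15 and numpy 2.4.6, and bands came from circlize 0.4.16. Overlap meant at least 1 bp. Depth matching scaled each count down to the H3K27ac library and kept islands still past that list's largest p-value. Reads at other times are sums over islands touching a region. Named loci and bands followed rules set by read density, ratio or length: 5 single-mark loci per mark, 5 regions of all marks, the 3 longest islands, and the 3 most extreme regions (at least 100 reads) and bands (at least 200 kb covered) each way. Code was tested on simulated data. Genes and sequences were not assigned, since no hg19 annotation was used here. Members, lists and rules were chosen with earlier results of these data known.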

Additional observations from a re-analysis of the deposited data

How the results depend on the processing

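Alternatives are given in the order shortest-list number, densest 20000, densest 5000 (added after the data were seen), depth-matched, FDR up to 1e-05 and at least 50% of the island covered. H3K9ac islands with H3K27ac came to 55.5, 46.4, 23.5, 54.7, 51.9 and 34.6%, and with H4K16ac to 74.3, 26.5, 10.7, 71.2, 71.2 and 68.3%. H3K27ac islands with H3K9ac came to 58.5, 44.9, 23.1, 55.8, 59.0 and 53.5%, and with H4K16ac to 56.3, 20.8, 7.66, 50.6, 52.4 and 50.98%. H4K16ac islands with H3K9ac came to 58.8, 25.7, 10.8, 62.5, 61.2 and 42.3%, and with H3K27ac to 45.4, 20.4, 7.78, 46.0, 42.6 and 19.04%. Fewer islands leave fewer partners by construction. At equal covered length the shares, for the pairs in the same order, were 65.1, 37.2, 47.3, 25.6, 58.2 and 55.7%. The sequence overlap, relative to the partner's autosome share, ranked H3K9ac with H3K27ac first, H3K9ac with H4K16ac second and H3K27ac with H4K16ac last in the list choices run. Median lengths were 3000 bp (shortest-list number), 2600 bp (densest 20000 and densest 5000), 3400 bp (depth-matched) and 3800 bp (islands joined across 2 kb) for H3K9ac, 2200 bp joined for H3K27ac, and 4200 bp (densest 20000), 2400 bp (densest 5000), 5200 bp (depth-matched) and 6400 bp (joined) for H4K16ac. When both the counted islands and their partners were the densest 20000 of each list, single-mark islands numbered 8189 for H3K9ac (40.9% of the 20000), 9541 for H3K27ac (47.7%) and 13541 for H4K16ac (67.7%), larger shares than in the full lists. They numbered 3461 (H3K9ac), 10989 (H3K27ac) and 11164 (H4K16ac) with none within 5 kb. The share of covered sequence with all 3 marks was 3.25% (densest 20000), 9.91% (depth-matched), 9.44% (stricter FDR) and 7.19% (equal covered length). Median log2 ratios per kb of island were -1.21 for H3K9ac over H3K27ac, 0.27 for H3K9ac over H4K16ac and 1.59 for H3K27ac over H4K16ac. Scaled by reads in islands they were -0.076, 0.0070 and -0.073, so H3K9ac over H4K16ac changed sign under both and H3K27ac over H4K16ac under the second, and the cause was not tested.

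No paired analysis was possible because each mark has 1 library at 7d-Dox. The small H3K27ac library limits what could be called: stretches under 11 reads are absent from its list, and a missing H3K27ac island does not show that the mark was absent. Island calls fix which reads are seen, and total library depth is known only relative to the control.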
